A study of Mus musculus with 6 samples.

Results

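The genes that license, start and carry out DNA replication, together with the cyclin E and E2F genes that govern entry into S phase, were examined in RNA sequencing of mouse leukaemic blasts. The 49 genes were taken by name from a list of these functions, and all 49 were found among the 24454 gene IDs of the deposited table. They were sorted by role into 9 groups. Expression was compared between 3 libraries of wild-type (WT) blasts and 3 libraries of blasts with a Stat3β transgene (Stat3β TG). STAT3 is a transcription factor, and Stat3β is its shorter splice form. The WT cells came from C57BL/6 wild-type littermates, and the Stat3β TG cells from C57BL/6 mice with Mx1-Cre and the Stat3β transgene. All donor cells were fetal liver cells that had been transformed with an MLL-AF9 retrovirus and injected into NSG mice. These hosts have no mature lymphocytes of their own but still make myeloid and red cells. Poly(I:C), which switches on Mx1-Cre through interferon and thereby the transgene, was injected 4 weeks after transplantation, and blasts were sorted from bone marrow of leukaemic mice at 6 weeks. The labels name Cre for the Stat3β TG donors and not for the WT donors. Whether the replicates are separate donors or mice is not stated, and p-values therefore measure only the spread between these libraries. WT 2 differed from WT 1 and WT 3 in sex-linked genes, as given below, so the WT libraries are not all repeats of the same sample. The spread between WT 1 and WT 3, or within Stat3β TG, may still be technical.

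Replication is prepared in G1, when the origin recognition complex, Cdc6 and Cdt1 load the MCM2-7 ring onto DNA. In S phase Cdc45 and the GINS complex turn that ring into the active helicase, and polymerases, the sliding clamp PCNA, its RFC loader and the single-strand binder RPA copy the strands behind it. Many of these genes are targets of E2F transcription factors, which are released from RB when cyclin-dependent kinases become active, and they are expressed mainly in dividing cells such as leukaemic blasts.

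Promoters of the MCM2-7 genes are shown because all 6 of these genes had their lowest level in the same library, described below, and most of these promoters hold letters of the E2F motif. Of the 49 genes, 40 had a promoter in the RefSeq table (GRCm38.p6), each of 300 bases, of which the first 250 lie before the start site. The letters searched, on both strands and with overlaps allowed, were TTTCCCGC, TTTGGCGC, TTTCGCGC, TTTGCCGC, TTCCCGCC, TTCGCGCC and TTGGCGCC. They stood in 20 of the 40 genes (50%), against 4.80% of all 32851 promoters and 9.96% of the 10108 tested genes with a promoter. The promoters of the 40 genes had a median GC content of 60.7%, against 52.7% over all promoters. Below, capitals mark these letters. Mcm3, Mcm5, Mcm6 and Mcm7 hold them, while Mcm2 does not, nor does Pola2, which is shown as the member with its highest value in WT 2, the library where most members were lowest. Mcm7 has a further promoter entry without them. Of the 6 MCM2-7 genes 5 had a promoter in the table, all except Mcm4.
Mcm3, chr1:20820263-20820562, minus strand: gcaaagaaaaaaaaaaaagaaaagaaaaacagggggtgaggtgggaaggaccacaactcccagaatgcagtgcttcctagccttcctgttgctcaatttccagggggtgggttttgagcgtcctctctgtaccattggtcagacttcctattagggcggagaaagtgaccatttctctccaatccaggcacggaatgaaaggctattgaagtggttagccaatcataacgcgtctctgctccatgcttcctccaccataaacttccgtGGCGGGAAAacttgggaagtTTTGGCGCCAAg
Mcm5, chr8:75109259-75109558, plus strand: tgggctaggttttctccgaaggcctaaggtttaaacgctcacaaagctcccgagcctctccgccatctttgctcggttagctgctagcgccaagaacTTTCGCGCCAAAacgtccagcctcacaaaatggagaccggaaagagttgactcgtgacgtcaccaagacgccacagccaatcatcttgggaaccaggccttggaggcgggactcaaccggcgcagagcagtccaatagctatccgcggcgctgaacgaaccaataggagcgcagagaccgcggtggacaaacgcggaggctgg
Mcm6, chr1:128359656-128359955, minus strand: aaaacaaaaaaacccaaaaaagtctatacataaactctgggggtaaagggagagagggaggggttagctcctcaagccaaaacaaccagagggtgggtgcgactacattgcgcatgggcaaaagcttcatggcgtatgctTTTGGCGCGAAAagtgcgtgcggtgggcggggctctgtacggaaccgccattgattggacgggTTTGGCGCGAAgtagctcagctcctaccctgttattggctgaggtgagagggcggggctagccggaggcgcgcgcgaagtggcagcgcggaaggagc
Mcm7, chr5:138171834-138172133, minus strand: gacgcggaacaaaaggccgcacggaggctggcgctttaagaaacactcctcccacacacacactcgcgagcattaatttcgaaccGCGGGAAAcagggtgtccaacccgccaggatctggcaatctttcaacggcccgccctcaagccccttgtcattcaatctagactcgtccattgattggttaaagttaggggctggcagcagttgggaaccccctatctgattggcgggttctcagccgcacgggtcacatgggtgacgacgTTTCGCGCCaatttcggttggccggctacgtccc
Mcm2, chr6:88898731-88899030, minus strand: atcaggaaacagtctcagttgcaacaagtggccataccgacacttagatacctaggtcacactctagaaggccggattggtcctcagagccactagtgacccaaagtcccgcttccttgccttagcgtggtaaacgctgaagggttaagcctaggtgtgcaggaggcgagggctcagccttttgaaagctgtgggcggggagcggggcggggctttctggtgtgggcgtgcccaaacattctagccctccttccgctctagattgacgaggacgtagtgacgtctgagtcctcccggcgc
Pola2, chr19:5964157-5964456, minus strand: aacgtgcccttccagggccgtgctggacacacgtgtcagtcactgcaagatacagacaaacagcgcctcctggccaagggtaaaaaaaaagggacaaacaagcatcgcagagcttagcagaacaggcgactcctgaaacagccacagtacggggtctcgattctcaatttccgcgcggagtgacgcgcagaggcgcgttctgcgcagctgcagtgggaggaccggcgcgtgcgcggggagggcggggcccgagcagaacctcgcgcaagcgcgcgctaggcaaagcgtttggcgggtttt

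In the Mcm6 promoter the E2F letters began at bases 141 and 204 of the window, and in Mcm3 at bases 269 and 289. The letters CCAAT, which many cell cycle promoters carry, were in 26 of the 40 genes (65%), against 43.3% of the tested genes with a promoter. The CHR letters of late cell cycle genes, TTTGAA and TTCGAA, were in 8 (20%), against 16.6%. These counts describe letters in the window and not bound sites.

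Before the results, 2 properties of the libraries need stating. Library depth ran from 21809788 to 51934498 recovered reads, and the lowest value of any member in any library rested on 281 reads. Over the 12642 tested genes the leading principal component (47.4% of the variance) put WT 2 and WT 3 at 64.4 and 49.7 and the other 4 libraries at -38.3 to -16.3. Xist, the RNA of the inactive X chromosome, was at 42700 and 45196 normalized counts in WT 1 and WT 3, at 835 in WT 2 and at 19.1 to 71.6 in Stat3β TG, while the summed Y-linked genes were at 58.8 and 71.8 in WT 1 and WT 3, at 11012 in WT 2 and at 8781 to 9465 in Stat3β TG. In this pattern WT 2 resembled the Stat3β TG libraries and the other WT libraries did not. Stat3 was at 8058, 16112 and 10879 normalized counts in WT 1 to 3 and 11129, 9846 and 8034 in Stat3β TG 1 to 3, so that the groups overlapped, and gene-level values do not separate its splice forms. Blast markers such as Ptprc, Kit, Hoxa9 and Mpo summed to 89890 to 155523 in WT and 126502 to 173377 in Stat3β TG. Mature neutrophil markers summed higher than the blast markers in every library, to 92003 to 350602 in WT and 355286 to 498281 in Stat3β TG. Markers of the other cell types were present at lower sums. The 11 erythroid genes summed to 3773 to 5845 over the 6 libraries, although 4 of them, the globins Hba-a1, Hba-a2, Hbb-bs and Hbb-bt, had 0 reads throughout. How reads were counted is not given in the sources used here, so these 0 values may not mean that globin RNA was absent. B lineage markers summed to 1211 to 2072, stromal and endothelial markers to 3066 to 5360, megakaryocyte markers to 778 to 2578, and T and NK markers to 38.0 to 262, with Cd3e at 0 reads throughout. In these 4 lists, in that order, 2 of 6, 3 of 8, 4 of 7 and 5 of 9 genes reached 10 normalized counts in 3 or more libraries, the filter for testing.

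Replication and G1/S genes were expressed in every library, and none was called different between Stat3β TG and WT. By limma, 0 of the 49 genes passed at an adjusted p under 0.05, as did 0% of all 12642 tested genes. At an unadjusted p under 0.05 there was 1 gene, Pole, against 6.10% of all tested genes. Pole was also the 1 member whose groups did not overlap, against 10.8% of all tested genes. On the recovered reads edgeR and DESeq2 each passed 0 members, with smallest adjusted p-values of 0.688 and 0.470 and 1 member each at an unadjusted p under 0.05. On the mean log2 scale 30 genes were higher and 19 lower in Stat3β TG. Their median log2 fold change was 0.05, where the median over all tested genes was 0.01. The fold changes ran from -0.47 (Pole) to 0.34 (Rfc2).

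With all 6 libraries and group as the only term, the intervals around these fold changes were narrow. The 95% limma interval lay inside a 2-fold change in either direction for 49 of 49 members, against 59.4% of all tested genes. It lay inside a 1.5-fold change for 26 of 49, against 27.1%. The widest interval was that of Pola1, at -0.49 to 0.96, and the narrowest that of E2f2, at -0.30 to 0.39. With a term for the Xist and Y-linked pattern, described below, 30 of 49 intervals lay inside a 2-fold change, against 37.4% of all tested genes. The values of 3 members, Mcm2, Pola1 (0.99) and Uhrf1 (0.64), then lay above their intervals from the fit without it. The upper limits were 0.96 for Pola1 and 0.61 for Uhrf1. Mcm2, at 0.64997 against a limit of 0.649931, was practically at its limit. In the plot of fold changes every interval except that of Pole crosses 0.

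**Figure D1:**
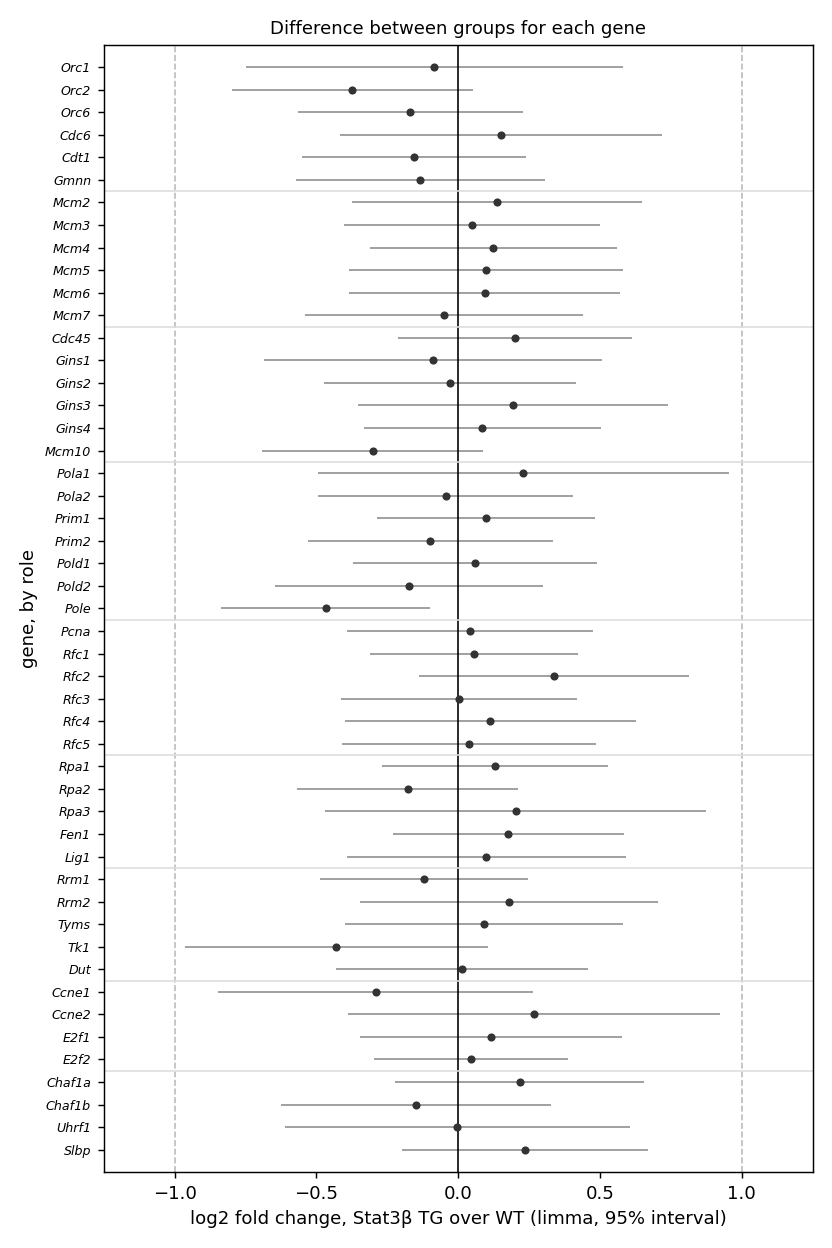
Stat3β TG against WT, as log2 fold change (x axis) for each of the 49 genes (y axis, in the order of their roles), with the 95% interval of the limma fit on 3 libraries per group. Dashed lines mark 2-fold changes; all 49 intervals lie between them, and the interval of Pole is the one that does not cross 0.

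The level varied between the WT libraries. WT 2 and WT 3 are singled out here after their values were seen. WT 2 was the lowest of the 6 libraries for 33 of 49 members (67.3%), against 26.0% of all tested genes, and WT 3 was the highest for 25 (51.0%), against 18.4%. The level in WT 2 was below the mean of WT 1 and WT 3 for 46 of 49 members, with a median ratio of 0.692, where 52.2% of all tested genes were below and the median ratio was 0.982. The exceptions were Pola2 (ratio 1.24), E2f2 (1.10) and Pole (1.0005). The mean log2 level of the 49 genes was 11.67, 11.23 and 11.78 in WT 1 to 3 and 11.50, 11.57 and 11.65 in Stat3β TG 1 to 3, so that all Stat3β TG values lay between WT 2 and the other WT libraries. The recovered reads of WT 2, 21809788, were close to the 21847953 of WT 3. The sum of the blast markers was also lowest in WT 2, at 89890, against 126502 to 173377 in the other 5 libraries. By marker, WT 2 was the lowest library for 4 of 9 and the highest for 2, against 26.0% and 24.0% of all tested genes. Mature neutrophil markers summed to 350602, 92003 and 281131 in WT 1 to 3 and 355286 to 498281 in Stat3β TG. None of the 10 markers was at 0 throughout, and all 10 were higher in Stat3β TG (median log2 fold change 1.01). By limma 4 had an unadjusted p under 0.05, against 6.10% of all tested genes, and 0 passed after adjustment. The groups did not overlap for 4, against 10.8% of all tested genes. Monocyte and macrophage markers summed to 53935 in WT 2 and 52131 to 115791 elsewhere. By marker, WT 2 was the lowest library for 5 of these 8 and the highest for 2. Of the 10 mature neutrophil markers it was the lowest for 9 and the highest for 1. The shares over all tested genes were 26.0% and 24.0%. The part of these markers in the low values of WT 2 and in the group comparison was not tested. In sorted bulk cells, fewer cells in S phase and less of these RNAs per cell cannot be told apart.

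**Figure D2:**
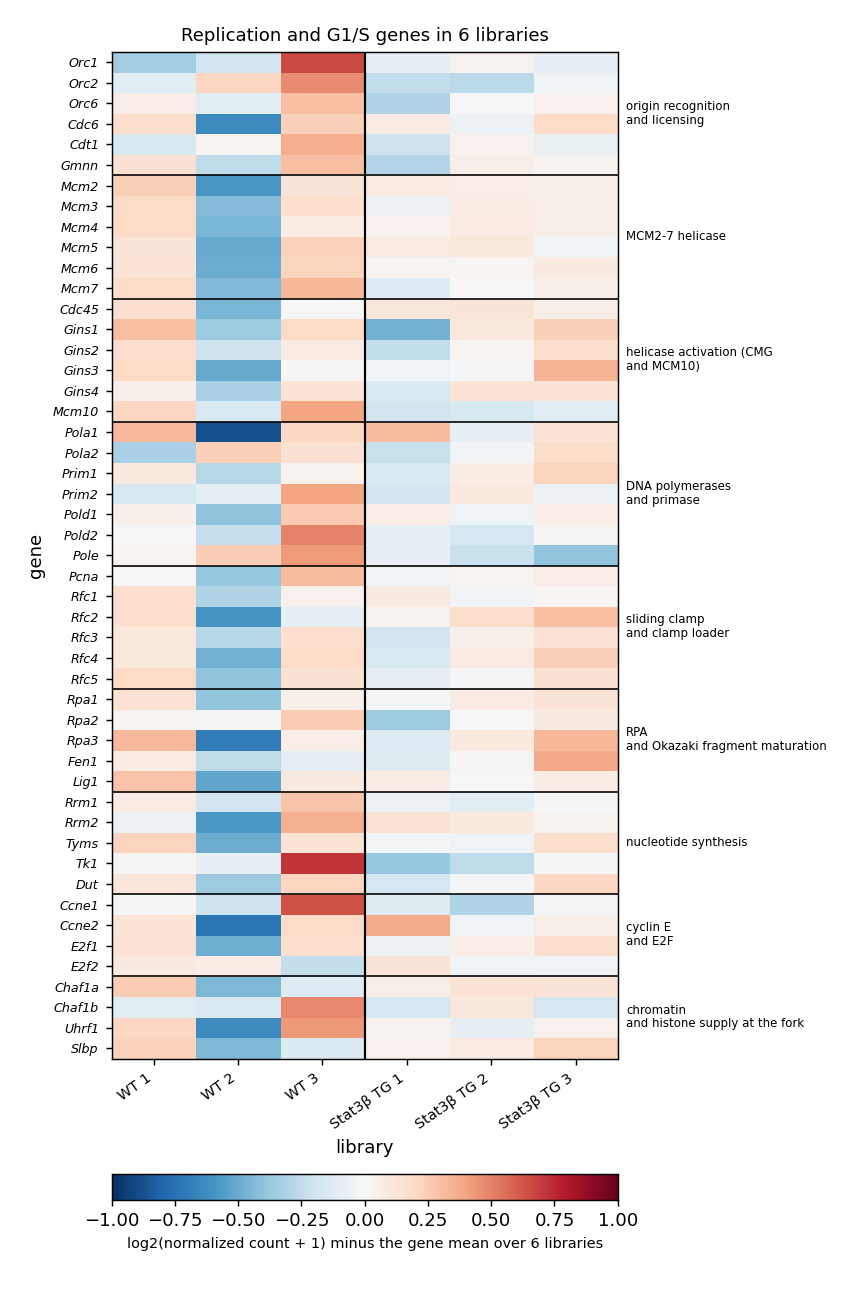
Each row is a gene, grouped by role, and each column a library. Colour gives log2(normalized count + 1) minus the mean of that gene over the 6 libraries, from -1 (blue) to 1 (red). The WT 2 column is blue for most genes, WT 3 is red for most, and the 3 Stat3β TG columns are paler.

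The sign of the group difference turned with the WT libraries in the fit. Without WT 2, 42 of 49 members were lower in Stat3β TG (median log2 fold change -0.14), and without WT 2 and WT 3, which leaves WT 1 as the WT library, 40 were (median -0.10). Without WT 1, 34 were higher (median 0.13), and without WT 3, 37 were (median 0.17). At an unadjusted p under 0.05 there were 3 members without WT 2 (Mcm10, Pole and Tk1), or 6.12% of them, against 3.12% of all tested genes, and 5 without WT 1 (Orc2, Pole, Rfc2, Chaf1a and Slbp), against 27.0%. No member passed at an adjusted p under 0.05 in these fits. The groups did not overlap for 14 members without WT 2, all lower, against 16.2% of all tested genes, and for 27 without WT 2 and WT 3, 24 of them lower, against 44.3%. Without WT 1 there were 6 such members (46.1% of all tested genes) and without WT 3 there were 3 (16.2%). Leaving out Stat3β TG 1, 2 or 3 gave 2, 2 and 4 such members, against 19.2%, 18.4% and 20.1%. The Xist and Y-linked pattern splits the WT group, so a fit with a term for it compares Stat3β TG with WT 2 alone. In that fit 41 members were higher, the median was 0.40, and 19 of 49 (38.8%) had an unadjusted p under 0.05, all of them higher, against 18.7% of all tested genes. Again 0 passed after adjustment, and the smallest adjusted p was 0.132. WT 2 is the 1 WT library with low Xist, so the WT arm of that comparison has no replicate of its own.

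**Figure D3:**
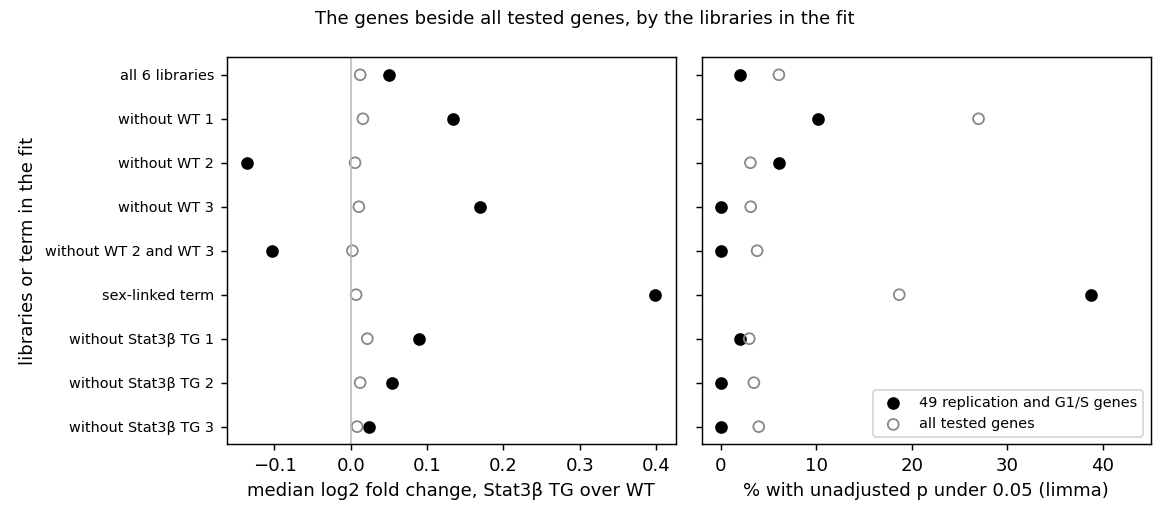
Filled points are the 49 genes and open points all 12642 tested genes, for each set of libraries or term in the fit (y axis). The left panel gives the median log2 fold change (Stat3β TG against WT) and the right panel the percentage of genes with an unadjusted limma p under 0.05. The median of the 49 genes lies below 0 in the fits without WT 2 and at 0.40 with the term for the Xist and Y-linked pattern, labelled sex-linked term.

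The spread within Stat3β TG was small. The SD of log2(normalized count + 1) had a median of 0.348 over the 49 genes in WT and 0.125 in Stat3β TG, where all tested genes had 0.329 and 0.210. It was larger in WT than in Stat3β TG for 45 of 49 members, against 69.6% of all tested genes. The 4 members with a larger SD in Stat3β TG were Gins1, Gins2, Rpa2 and Fen1. For Mcm2 the SD was 0.446 in WT and 0.0119 in Stat3β TG, and for Mcm4 0.348 and 0.0176. With 3 libraries per group an SD is itself imprecise, and the difference in spread was not tested.

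**Figure D4:**
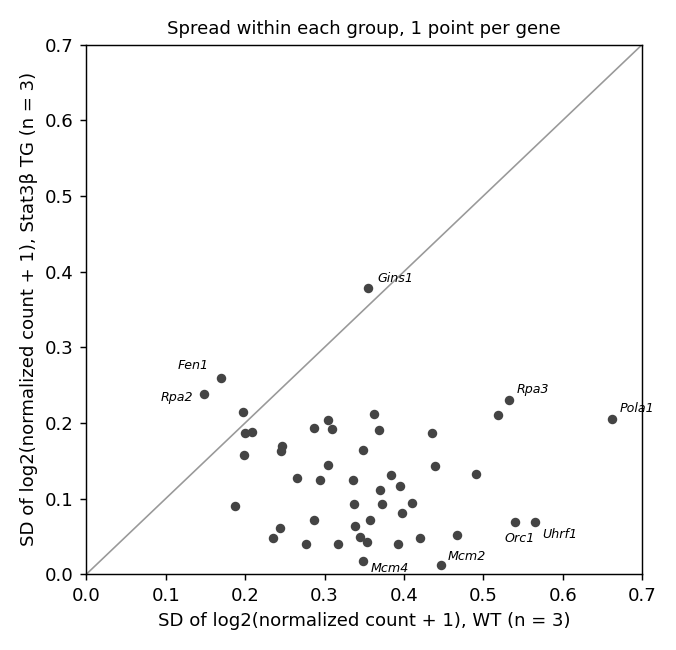
Each point is a gene, placed by its SD over the 3 WT libraries (x axis) and over the 3 Stat3β TG libraries (y axis), both on the log2(normalized count + 1) scale. The line marks equal SD; 45 of 49 genes lie below it, and Mcm2 and Mcm4 lie closest to the x axis.

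Origin recognition and licensing genes had the lowest median of the 9 groups. Of 6 members 5 were lower in Stat3β TG and 1 higher, none past the test. Their median log2 fold change was -0.14, and all 6 had their highest value in WT 3. Orc2, a core subunit of the origin recognition complex, was at 1756, 2190 and 2641 normalized counts in WT 1 to 3 and 1606, 1575 and 1846 in Stat3β TG 1 to 3. All Stat3β TG libraries lay below WT 2 and WT 3, but Stat3β TG 3 lay above WT 1. The log2 fold change was -0.37 (SE 0.18, limma adjusted p = 0.668). Cdt1, which brings the MCM ring to origins, was at 4654, 5316 and 6697 normalized counts in WT 1 to 3 and 4506, 5372 and 4942 in Stat3β TG 1 to 3. The groups overlapped, and the log2 fold change was -0.16 (SE 0.17, limma adjusted p = 0.760). Orc6 was at 2158, 1909 and 2548 normalized counts in WT 1 to 3 and 1677, 2066 and 2132 in Stat3β TG 1 to 3, with Stat3β TG 1 lowest, and its log2 fold change was -0.17 (SE 0.17, limma adjusted p = 0.744). Gmnn encodes geminin, the inhibitor of Cdt1, and had a log2 fold change of -0.13. Cdc6, the loader ATPase, was the member with a positive value, 0.15, and was at 2047, 1160 and 2130 normalized counts in WT 1 to 3 and 1919, 1734 and 2081 in Stat3β TG 1 to 3. WT 2 was low and the other 5 libraries lay close together. Orc1, the least abundant member per kilobase of transcript (170 normalized counts per kb), was at 392, 441 and 789 normalized counts in WT 1 to 3 and 473, 513 and 472 in Stat3β TG 1 to 3, with WT 3 standing above the rest.

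The 6 subunits of the MCM2-7 helicase were close together in Stat3β TG, with a median SD of 0.0562 on the log2 scale. WT 2 was the lowest library for 6 of 6, with 0.587 to 0.662 times the mean of WT 1 and WT 3, and 5 of 6 were higher in Stat3β TG, none past the test. Their median log2 fold change was 0.10. Mcm2 was at 11107, 6282 and 10292 normalized counts in WT 1 to 3 and 9953, 9814 and 9809 in Stat3β TG 1 to 3. The Stat3β TG libraries were nearly equal and lay between WT 2 and the other WT libraries. The log2 fold change was 0.14 (SE 0.22, limma adjusted p = 0.830). Mcm4 was at 9436, 5993 and 8677 normalized counts in WT 1 to 3 and 8502, 8708 and 8566 in Stat3β TG 1 to 3, with WT 2 alone below the Stat3β TG range and a log2 fold change of 0.12 (SE 0.19, limma adjusted p = 0.823). Mcm5 was at 14430, 9323 and 15518 normalized counts in WT 1 to 3 and 14016, 14235 and 12833 in Stat3β TG 1 to 3, and its log2 fold change was 0.10 (SE 0.21, limma adjusted p = 0.876). Again WT 2 stood alone below the others. Mcm6 was at 17087, 11026 and 18169 normalized counts in WT 1 to 3 and 15850, 15796 and 16605 in Stat3β TG 1 to 3, and Mcm3 at 14025, 9059 and 13786 normalized counts in WT 1 to 3 and 11783, 12921 and 12762 in Stat3β TG 1 to 3. Mcm7 was at 8938, 5807 and 9932 normalized counts in WT 1 to 3 and 7191, 7920 and 8150 in Stat3β TG 1 to 3, and was the subunit with a negative value, -0.05. Per kilobase of transcript, Mcm6, Mcm3 and Mcm5 were the 3 most abundant members of all 49, at 5414, 4087 and 3961 normalized counts per kb over the 6 libraries, against 2831 for Mcm2, 2697 for Mcm7 and 2316 for Mcm4. The median of the 49 was 1245.

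**Figure D5:**
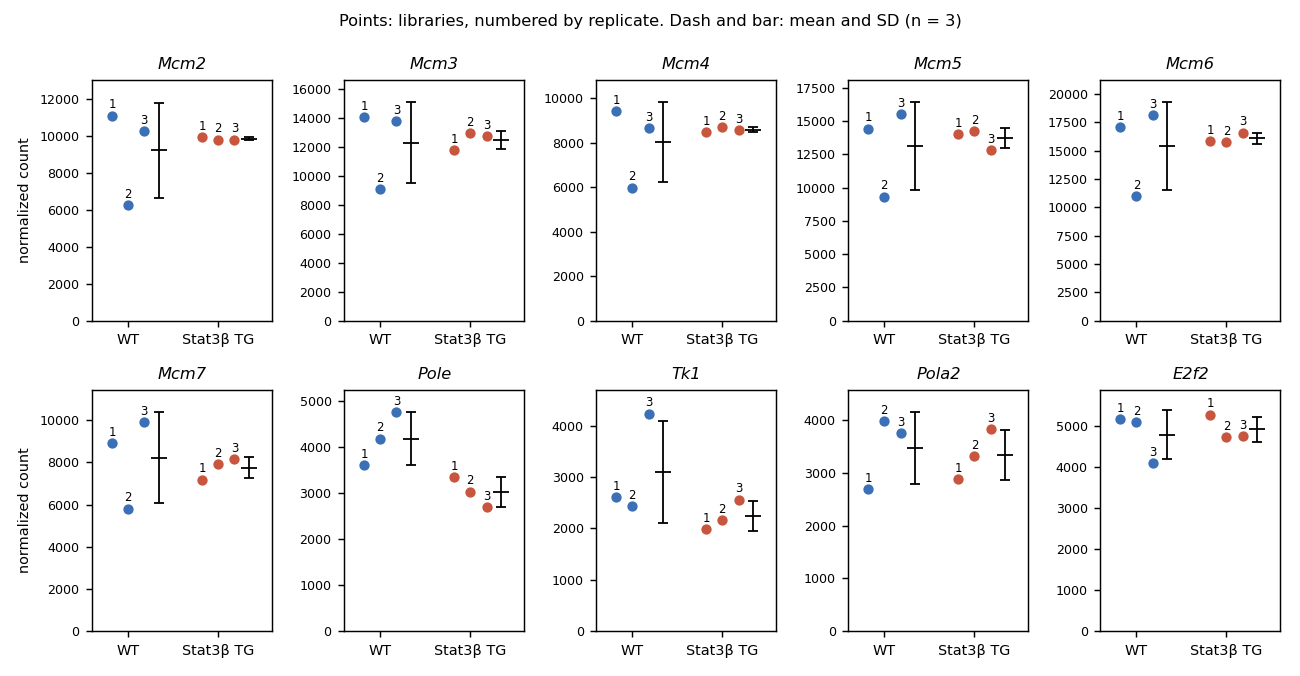
Normalized counts (y axis, from 0) of the 6 MCM2-7 genes and of Pole, Tk1, Pola2 and E2f2, with a point for each library, numbered by replicate, and the mean and SD of each group beside the points (n = 3). WT 2 is the lowest point for all 6 MCM genes, while for Pole all WT points lie above all Stat3β TG points, and for Pola2 WT 2 is the highest.

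Genes that activate the helicase went in both directions. Of 6 members 3 were higher and 3 lower, none past the test, and the median log2 fold change was 0.03. Mcm10, which helps the activated helicase leave the origin, was at 2972, 2326 and 3393 normalized counts in WT 1 to 3 and 2265, 2314 and 2392 in Stat3β TG 1 to 3. WT 2 lay within the Stat3β TG range and the other 2 WT libraries above it. The log2 fold change was -0.30 (SE 0.17, limma adjusted p = 0.668), and without WT 2 it was -0.45 with an unadjusted p of 0.0180, not past the adjusted threshold. Cdc45, the helicase cofactor, was at 4210, 2755 and 3756 normalized counts in WT 1 to 3 and 4085, 4131 and 3920 in Stat3β TG 1 to 3. WT 2 and WT 3 lay below the Stat3β TG range, and the log2 fold change was 0.20 (SE 0.18, limma adjusted p = 0.714). Among the 4 GINS subunits Gins3 was at 796, 489 and 697 normalized counts in WT 1 to 3 and 677, 683 and 878 in Stat3β TG 1 to 3, with a log2 fold change of 0.19 (SE 0.24, limma adjusted p = 0.785). The other 3 had log2 fold changes from -0.09 (Gins1) to 0.09 (Gins4). Gins1 was at 1273, 805 and 1185 normalized counts in WT 1 to 3 and 744, 1114 and 1219 in Stat3β TG 1 to 3, so that Stat3β TG 1 lay below even WT 2.

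Among polymerase and primase genes, Pole was the 1 member whose groups did not overlap, against 10.8% of all tested genes. On the mean log2 scale 4 of 7 members were lower. The median log2 fold change was -0.04. Pole encodes the catalytic subunit of the leading-strand polymerase (Entrez 18973, GRCm38 chromosome 5, 110286306 to 110337474, plus strand), and was at 3618, 4191 and 4760 normalized counts in WT 1 to 3 and 3344, 3034 and 2690 in Stat3β TG 1 to 3. Every WT library lay above every Stat3β TG library, with the gap smallest between WT 1 and Stat3β TG 1, and WT 2 was not low. Its means were 4190 ± 571 (SD, n = 3) for WT and 3022 ± 327 (SD, n = 3) for Stat3β TG, a log2 fold change of -0.47 (SE 0.16, limma adjusted p = 0.668) with an unadjusted p of 0.0195. The difference kept its sign in all fits run, at -0.57 to -0.37 when single libraries were left out, -0.26 without WT 2 and WT 3, and -0.48 with the term for the Xist and Y-linked pattern. An exon of Pole overlaps the gene Gm15792 on the opposite strand, and how the counting used strand is not given in the sources used here. Pold1, the catalytic subunit of the lagging-strand polymerase, was at 6204, 4535 and 7179 normalized counts in WT 1 to 3 and 6284, 5812 and 6272 in Stat3β TG 1 to 3, with a log2 fold change of 0.06. Pold2, its accessory subunit, was at 1726, 1478 and 2448 normalized counts in WT 1 to 3 and 1622, 1538 and 1750 in Stat3β TG 1 to 3, and had a log2 fold change of -0.17 (SE 0.20, limma adjusted p = 0.779).

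The primase-polymerase alpha complex, which lays down primers, held the members with the most unlike patterns. Pola1, its catalytic subunit and the 1 member on the X chromosome, was at 2842, 1236 and 2623 normalized counts in WT 1 to 3 and 2816, 2121 and 2490 in Stat3β TG 1 to 3. WT 2 was at 0.452 times the mean of WT 1 and WT 3, the lowest such ratio of the 49 genes. WT 1 and WT 3, the libraries with high Xist, lay within or just above the Stat3β TG range, and the log2 fold change was 0.23 (SE 0.31, limma adjusted p = 0.805). Pola2, the second subunit, went the other way, at 2690, 3981 and 3754 normalized counts in WT 1 to 3 and 2886, 3318 and 3829 in Stat3β TG 1 to 3, with WT 2 highest and WT 1 lowest. Its log2 fold change was -0.04. The primase subunit Prim1 was at 2996, 2316 and 2878 normalized counts in WT 1 to 3 and 2529, 2962 and 3269 in Stat3β TG 1 to 3, and Prim2 at 1974, 2077 and 2910 normalized counts in WT 1 to 3 and 1940, 2368 and 2116 in Stat3β TG 1 to 3. Both overlapped between groups, with log2 fold changes of 0.10 and -0.10.

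All 6 genes of the sliding clamp and its loader were higher in Stat3β TG on the mean log2 scale, none past the test. The median log2 fold change was 0.05. WT 2 was the lowest library for 6 of 6. Rfc2, a loader subunit, had the largest positive value of the 49 genes, at 4755, 2818 and 3981 normalized counts in WT 1 to 3 and 4347, 4771 and 5211 in Stat3β TG 1 to 3. WT 1 lay inside the Stat3β TG range and the other WT libraries below it. Its means were 3851 ± 975 (SD, n = 3) for WT and 4776 ± 432 (SD, n = 3) for Stat3β TG, and the log2 fold change was 0.34 (SE 0.21, limma adjusted p = 0.668). Without WT 1 it was 0.51 with an unadjusted p of 0.0270, and without WT 2 and WT 3 it was 0.00. Rfc4 was at 1170, 778 and 1248 normalized counts in WT 1 to 3 and 982, 1148 and 1279 in Stat3β TG 1 to 3, with a log2 fold change of 0.11 (SE 0.22, limma adjusted p = 0.864), and Rfc1, the large subunit, at 5587, 4031 and 5112 normalized counts in WT 1 to 3 and 5290, 4867 and 5031 in Stat3β TG 1 to 3, with 0.06 (SE 0.16, limma adjusted p = 0.904). Neither separated the groups. Pcna was at 5140, 3946 and 6359 normalized counts in WT 1 to 3 and 5018, 5235 and 5363 in Stat3β TG 1 to 3. Its range in Stat3β TG was narrow and lay inside the WT range, with a log2 fold change of 0.04. The RefSeq table names 2 pseudogenes of Pcna, so its reads may be split with them. Rfc3 and Rfc5 had log2 fold changes of 0.00 and 0.04. Without WT 2 the sign turned for all 6 except Rfc2.

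RPA and Okazaki fragment genes were higher in Stat3β TG in 4 of 5 members, none past the test, and the median log2 fold change was 0.13. Rpa1, the large subunit of the single-strand binder, was at 8669, 5979 and 8142 normalized counts in WT 1 to 3 and 7770, 8306 and 8567 in Stat3β TG 1 to 3, and the log2 fold change was 0.13 (SE 0.17, limma adjusted p = 0.802). Rpa2, the middle subunit, was at 2995, 2890 and 3504 normalized counts in WT 1 to 3 and 2286, 2935 and 3123 in Stat3β TG 1 to 3. Stat3β TG 1 was lowest and WT 3 highest, and the log2 fold change was -0.18 (SE 0.17, limma adjusted p = 0.730). Fen1, the flap nuclease that trims Okazaki fragments, was at 3851, 3042 and 3394 normalized counts in WT 1 to 3 and 3332, 3659 and 4716 in Stat3β TG 1 to 3, and its log2 fold change was 0.18 (SE 0.18, limma adjusted p = 0.739). Stat3β TG 3 alone lay above all WT libraries. Lig1, the ligase that joins the fragments, was at 9517, 5450 and 8330 normalized counts in WT 1 to 3 and 8255, 7796 and 8259 in Stat3β TG 1 to 3, with WT 2 lowest, the Stat3β TG libraries just below WT 3 and a log2 fold change of 0.10. The small subunit gene Rpa3 had 0.20, with a wide interval of -0.47 to 0.88.

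In nucleotide synthesis, Tk1 had the lowest fold change. On the mean log2 scale 2 of 5 members were lower, none past the test, and the median log2 fold change was 0.01. Tk1, the salvage kinase for thymidine, was at 2607, 2437 and 4238 normalized counts in WT 1 to 3 and 1984, 2167 and 2561 in Stat3β TG 1 to 3. WT 3 stood far above the rest, and WT 1 and WT 2 lay near Stat3β TG 3. The log2 fold change was -0.43 (SE 0.23, limma adjusted p = 0.668). Without WT 3 it was -0.18, and without WT 2 it was -0.58 with an unadjusted p of 0.0450. An exon of Tk1 overlaps Afmid on the opposite strand. Rrm2, the regulated subunit of ribonucleotide reductase, was at 6369, 4454 and 8492 normalized counts in WT 1 to 3 and 7286, 7080 and 6780 in Stat3β TG 1 to 3, with all Stat3β TG libraries between WT 1 and WT 3. Its log2 fold change was 0.18 (SE 0.23, limma adjusted p = 0.794). Rrm1, the large subunit, was at 11600, 9611 and 13303 normalized counts in WT 1 to 3 and 10522, 10126 and 10820 in Stat3β TG 1 to 3, with a log2 fold change of -0.12 (SE 0.16, limma adjusted p = 0.800). Tyms and Dut, which make thymidylate and clear dUTP, had log2 fold changes of 0.09 and 0.01, with WT 2 lowest for both. Tyms has 1 named pseudogene.

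The E2F and cyclin E genes, which act upstream of the rest, were mixed. On the mean log2 scale 3 of 4 members were higher, none past the test, and the median log2 fold change was 0.08. E2f1, an activating E2F, was at 3719, 2401 and 3767 normalized counts in WT 1 to 3 and 3233, 3513 and 3775 in Stat3β TG 1 to 3. WT 2 was low and the other 5 libraries lay close together, with a log2 fold change of 0.12 (SE 0.20, limma adjusted p = 0.842). E2f2, its relative, was at 5162, 5105 and 4100 normalized counts in WT 1 to 3 and 5281, 4727 and 4755 in Stat3β TG 1 to 3, with WT 3 lowest and a log2 fold change of 0.05. The 2 E type cyclins, which activate CDK2, had opposite signs. Ccne1 was at 974, 837 and 1506 normalized counts in WT 1 to 3 and 892, 786 and 956 in Stat3β TG 1 to 3, with WT 3 highest, and its log2 fold change was -0.29 (SE 0.24, limma adjusted p = 0.697). Ccne2 was at 694, 380.4 and 723 normalized counts in WT 1 to 3 and 819, 621 and 658 in Stat3β TG 1 to 3, with WT 2 lowest, and its log2 fold change was 0.27 (SE 0.28, limma adjusted p = 0.750). Ccne2 was among the least abundant members, at 216 normalized counts per kb, against 496 for Ccne1.

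Genes that rebuild chromatin behind the fork were split, 2 higher and 2 lower, none past the test, and the median log2 fold change was 0.11. Slbp, which binds histone mRNAs, was at 4043, 2535 and 3148 normalized counts in WT 1 to 3 and 3569, 3661 and 4034 in Stat3β TG 1 to 3. WT 1 was the highest library and the other WT libraries lay below all Stat3β TG libraries. The log2 fold change was 0.24 (SE 0.19, limma adjusted p = 0.692). Chaf1a, the large subunit of the histone chaperone CAF-1, was at 5687, 3483 and 4354 normalized counts in WT 1 to 3 and 4961, 5239 and 5205 in Stat3β TG 1 to 3. Here too WT 1 was highest and the other WT libraries lay below all Stat3β TG libraries, with a log2 fold change of 0.22 (SE 0.19, limma adjusted p = 0.709). Chaf1b, another CAF-1 subunit, was at 1487, 1446 and 2228 normalized counts in WT 1 to 3 and 1418, 1734 and 1428 in Stat3β TG 1 to 3, with WT 3 highest and a log2 fold change of -0.15 (SE 0.21, limma adjusted p = 0.807). Without WT 1, Slbp had a log2 fold change of 0.41 (unadjusted p = 0.0315) and Chaf1a 0.40 (0.0303), and without WT 2 and WT 3 both were negative, at -0.11 and -0.15. Uhrf1, which recruits DNA methylation to new DNA, was at 7746, 4325 and 9103 normalized counts in WT 1 to 3 and 6895, 6359 and 6923 in Stat3β TG 1 to 3. Its group means nearly coincided, with a log2 fold change of 0.00, while WT 2 and WT 3 differed by more than the Stat3β TG libraries did.

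Genes with and without E2F letters in the promoter gave similar medians, which are a description with no test. The ratio of WT 2 to the mean of WT 1 and WT 3 had a median of 0.666 over the 20 genes with the letters and 0.699 over the 20 without. The median log2 fold change was 0.08 and 0.03, with 5 and 9 genes lower in Stat3β TG. The classes depend on where the window lies. For E2f1 and Dut, counted without the letters, and for Cdc6, counted with them, it lay wholly inside the gene as annotated. Bases before the annotated gene were not searched for these genes. Mcm2, without the letters in this window, was lowest in WT 2, like Mcm3, Mcm5, Mcm6 and Mcm7.

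Among other genes of the pathway none passed the adjusted test. In 31 further replisome and licensing genes 18 were lower and 13 higher. The median log2 fold change was -0.07. At an unadjusted p under 0.05, 4 were lower and 0 higher, and the groups did not overlap in these 4, where all tested genes had 6.10% at that p and 10.8% without overlap. Dbf4, the activator of the CDC7 kinase that fires origins, was at 3122, 4111 and 3918 normalized counts in WT 1 to 3 and 2185, 2740 and 2959 in Stat3β TG 1 to 3, a log2 fold change of -0.50 (SE 0.18, limma adjusted p = 0.668). Topbp1, a scaffold for helicase activation and checkpoint signalling, was at 12536, 17182 and 17246 normalized counts in WT 1 to 3 and 10721, 11782 and 10847 in Stat3β TG 1 to 3, with -0.48 (SE 0.17, limma adjusted p = 0.668). In both, as in Pole, WT 2 was not low. Atad5 and Pole3, named after their values were seen, were the others of these 4, with log2 fold changes of -0.56 and -0.51.

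In 19 further nucleotide supply genes 10 were lower and 9 higher, and the median was -0.02. Samhd1, which breaks down dNTPs, was at 4912, 2726 and 2261 normalized counts in WT 1 to 3 and 6150, 5280 and 7585 in Stat3β TG 1 to 3. Every Stat3β TG library lay above every WT library, and the log2 fold change was 1.01 (SE 0.29, limma adjusted p = 0.668), with an unadjusted p of 0.00889. It was the 1 gene of the 19 at an unadjusted p under 0.05, against 6.10% of all tested genes. Dck, the salvage kinase for deoxycytidine, was at 2450, 1084 and 1852 normalized counts in WT 1 to 3 and 2887, 2169 and 2611 in Stat3β TG 1 to 3, with overlapping groups and 0.58 (SE 0.29, limma adjusted p = 0.668). Among 21 E2F, RB and CDK2 regulators 13 were higher and 8 lower, with a median of 0.05 and 0 at an unadjusted p under 0.05. E2f6, a repressor E2F, was at 1381, 766 and 1015 normalized counts in WT 1 to 3 and 1547, 1297 and 1435 in Stat3β TG 1 to 3, with 0.47 (SE 0.23, limma adjusted p = 0.668), and Ccna2, the cyclin of S phase and G2, at 7874, 6985 and 6932 normalized counts in WT 1 to 3 and 5493, 5679 and 6680 in Stat3β TG 1 to 3, with -0.29 (SE 0.14, limma adjusted p = 0.668). The groups overlapped for E2f6 and not for Ccna2.

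Of 26 mitosis genes 25 were lower in Stat3β TG, as were 48.6% of all tested genes. The median log2 fold change was -0.16, and 0 passed the adjusted test. There were 5 at an unadjusted p under 0.05, all lower, and 7 whose groups did not overlap, all lower, against 6.10% and 10.8% of all tested genes. Cdc25c, a phosphatase that activates CDK1, was at 754, 1199 and 1034 normalized counts in WT 1 to 3 and 555, 665 and 575 in Stat3β TG 1 to 3, a log2 fold change of -0.71 (SE 0.22, limma adjusted p = 0.668). Cdc20 was at 4324, 5205 and 4102 normalized counts in WT 1 to 3 and 2943, 3504 and 3243 in Stat3β TG 1 to 3, with -0.49 (SE 0.15, limma adjusted p = 0.668). WT 2 was the highest library for both, but over the 26 genes it was the highest for 5 and the lowest for 6.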

How the data were processed

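RNA was sequenced from sorted blasts of 3 WT and 3 Stat3β TG samples, grouped and numbered by their titles. The submitters' processing notes list STAR, FastQC and DESeq2 and the build GRCm38 (mm10). For their versions, the counter, annotation, strand handling and filters, the sources used here give nothing. Values deposited by the authors are normalized counts per gene, treated as a signal unit. In each library all values were whole multiples of 1 step (100% of 146724 values within 0.001), so whole reads were recovered. Of 24454 Entrez IDs, 24376 had a symbol in the RefSeq table of GRCm38.p6. Coordinates, overlaps and transcript lengths (the longest APPRIS principal transcript) come from GENCODE M21.

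The filter kept 12642 genes that reached 10 normalized counts in 3 or more libraries. The test was limma 3.58.1 (trend, robust) on log2(normalized count + 1) in R 4.3.3, with no term other than group. It was two-sided, and p-values were adjusted by Benjamini-Hochberg over all tested genes, with a threshold of 0.05. A fold change is on that scale, which understates the change of low genes. edgeR 4.0.16 and DESeq2 1.42.0 on recovered reads, other pseudocounts and filters, quantile normalization, a replicate block, left-out libraries and a term for the Xist and Y-linked pattern were alternatives. The limma script was tested on simulated data. In each role group the 3 members with the smallest p, and in each further list the 2 with the smallest p, were named with full statistics. The members and lists were chosen with earlier results of these data known. Exons of 17 members overlap another gene, 16 of them a gene on the opposite strand, so their reads may be shared.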

Additional observations from a re-analysis of the deposited data

How the results depend on the processing

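No member passed the adjusted threshold under any alternative run (0 of 49 in each), and the 27 members named with full statistics had adjusted p-values of at least 0.080. With other scaling, pseudocounts and filters 19 members were lower in Stat3β TG, with edgeR and DESeq2 21, and no named member changed sign there. Over all tested genes 0 passed in limma with all libraries and 17 in DESeq2, while the limma fits passed 346 without WT 1, 5 without WT 2, 9 without WT 2 and WT 3 and 2 with the term for the Xist and Y-linked pattern. The members' counts and signs changed with the WT libraries. Leaving out 1 library at a time, the count lower in Stat3β TG ran from 12 (without WT 3) to 42 (without WT 2), the count at an unadjusted p under 0.05 from 0 to 5, and the count whose groups did not overlap from 2 (4.08%, without Stat3β TG 1 or 2, against 19.2% and 18.4% of all tested genes) to 14 (28.6%, without WT 2, against 16.2%). Without WT 2 and WT 3 these counts were 40, 0 and 27 (55.1%, against 44.3% of all tested genes), and the RPA and Okazaki median was -0.12. Comparing 1 WT library with 3 makes non-overlap frequent by construction. With the term for the Xist and Y-linked pattern 8 were lower and 19 had an unadjusted p under 0.05, and medians were all 49 genes 0.40, origin recognition and licensing 0.084, MCM2-7 helicase 0.53, helicase activation (CMG and MCM10) 0.34, DNA polymerases and primase 0.14, sliding clamp and clamp loader 0.41, RPA and Okazaki fragment maturation 0.46, nucleotide synthesis 0.37, cyclin E and E2F 0.30 and chromatin and histone supply at the fork 0.56.

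Named members whose sign turned when single libraries were left out ran over these ranges of log2 fold change: Mcm2 -0.12 to 0.29, Mcm4 -0.075 to 0.25, Mcm5 -0.13 to 0.24, Gins3 -0.0075 to 0.34, Pola1 -0.15 to 0.45, Rfc1 -0.079 to 0.16, Rfc4 -0.097 to 0.24, Rpa1 -0.034 to 0.23, Rrm2 -0.062 to 0.40, Ccne2 -0.030 to 0.43, E2f1 -0.097 to 0.23, Pold2 -0.33 to 0.033, Chaf1b -0.26 to 0.052. Without WT 2 and WT 3 the reversed values were Cdt1 0.082, Mcm2 -0.17, Mcm4 -0.14, Mcm5 -0.077, Cdc45 -0.058, Gins3 -0.10, Pola1 -0.21, Rfc1 -0.14, Rfc4 -0.051, Rpa1 -0.079, Ccne2 -0.00088, E2f1 -0.088, Chaf1a -0.15, Chaf1b 0.032 and Slbp -0.11. With the term for the Xist and Y-linked pattern they were Orc6 0.029, Pold2 0.14, Rrm1 0.13, Ccne1 0.065 and Chaf1b 0.072. The cause was not tested.

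The labels do not say that equal replicate numbers pair samples. Deviations from the group means correlated at 0.14, 0.10 and -0.11 for numbers 1 to 3. With 3 libraries per group, whose deviations sum to 0, such values cannot decide whether the numbers pair samples. WT 1 and WT 2 correlated best with the Stat3β TG libraries of their own number, and WT 3 with Stat3β TG 2. With the replicate block, 2 members instead of 1 had an unadjusted p under 0.05, 0 passed after adjustment, and the median stayed 0.05. Every member had at least 281 reads in every library. The number of libraries, 3 per group, limits the precision.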

Other observations

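The distance between replication and mitosis genes varied across the WT libraries and little across Stat3β TG. Subtracting the mean log2 level of 26 mitosis genes from that of the 49 replication and G1/S genes gave -0.46, -0.64 and -0.07 in WT 1 to 3 and -0.17, -0.18 and -0.15 in Stat3β TG 1 to 3. WT 3 lay at the upper end and WT 2 at the lower end, with the Stat3β TG libraries close together between WT 3 and WT 1. For the mitosis genes themselves WT 1 was the highest library in 18 of 26 and Stat3β TG 1 the lowest in 13, whereas for the replication genes WT 3 was the highest in 25 of 49 and WT 2 the lowest in 33.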
